A study of Mus musculus with 6 samples.

Results

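The 8 genes Mbp, Pmp22, Mag, Prx, Egr2, Sox10, S100b and Cdh19 are used as markers of Schwann cells and of the myelin these cells make. They were taken by symbol from a table of 23367 gene entries, each symbol was found in a single row, and all 8 passed the filter on low counts. The table holds polyadenylated RNA from the gastrocnemius, a calf muscle, of wild-type FVB mice, an inbred laboratory strain, with no transgene or treatment in any group. There were 6 libraries at 5 stages of growth. They were E18.5 (embryonic day 18.5, males and females pooled), PN2 (postnatal day 2, males pooled), PN14 (postnatal day 14, replicates 1 and 2, each from 1 male), PN28 (postnatal day 28, 1 male) and adult (22 weeks, 1 male). The study asked how gene expression changes as skeletal muscle matures after birth.

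Schwann cells are the glia of peripheral nerve, and in muscle they surround the axons of the nerve branches and cap the nerve terminals on the fibres. The transcription factor Sox10 specifies the lineage and, when a Schwann cell wraps an axon, acts with Egr2 to switch on the genes for compact myelin and for the enzymes of myelin lipid synthesis. Signals from the axon, among them neuregulin acting through ErbB2 and ErbB3, control how many Schwann cells survive and how much myelin they make. In RNA from whole muscle, fewer cells of a type and less RNA per cell cannot be told apart.

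The members ranged widely in level and were detected in all 6 libraries. Expected counts, the RSEM estimates of fragments per gene, ran from 185 for Cdh19 in PN14 replicate 1 to 84869 for Pmp22 in PN14 replicate 2, so none of the members was near the counting floor of 3. In FPKM (fragments scaled to transcript length and to the library total, the scale used for levels), Pmp22 stood above 96.6% to 98.9% of all gene entries in the 6 libraries, Mbp above 80.5% to 98.6% and Cdh19 above 47.8% to 53.8%. In FPKM 4 members were highest at PN2 and 4 in PN14 replicate 2, and after the TMM scaling described below these counts were 2 and 5, with 1 (Cdh19) highest in the adult.

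The libraries held 125402932 to 157868359 counts on genes. The make-up of the RNA changed with age: the summed FPKM of 6 muscle fibre genes (led by Acta1, Mylpf and Tnnt3) was 32300 at E18.5 and 35600 at PN2, against 99300 to 129000 in the later libraries. Differences between stages were therefore taken after TMM scaling, under which the all-gene median of the log2 fold changes stayed between -0.054 and -0.011. With library size alone that median was -0.66 between PN2 and PN14, -0.92 between PN2 and PN28 and -1.08 from E18.5 to adult. The column names give every library a sequencing lane of its own. Lane thus cannot be told apart from stage, or from mouse within the PN14 pair. All tests used edgeR's quasi-likelihood fit over 16882 genes. The PN14 pair alone had replicates and supplied the residual spread for every stage. Calls needed a Benjamini-Hochberg adjusted p below 0.05 together with a difference of 2-fold or more.

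**Figure D1:**
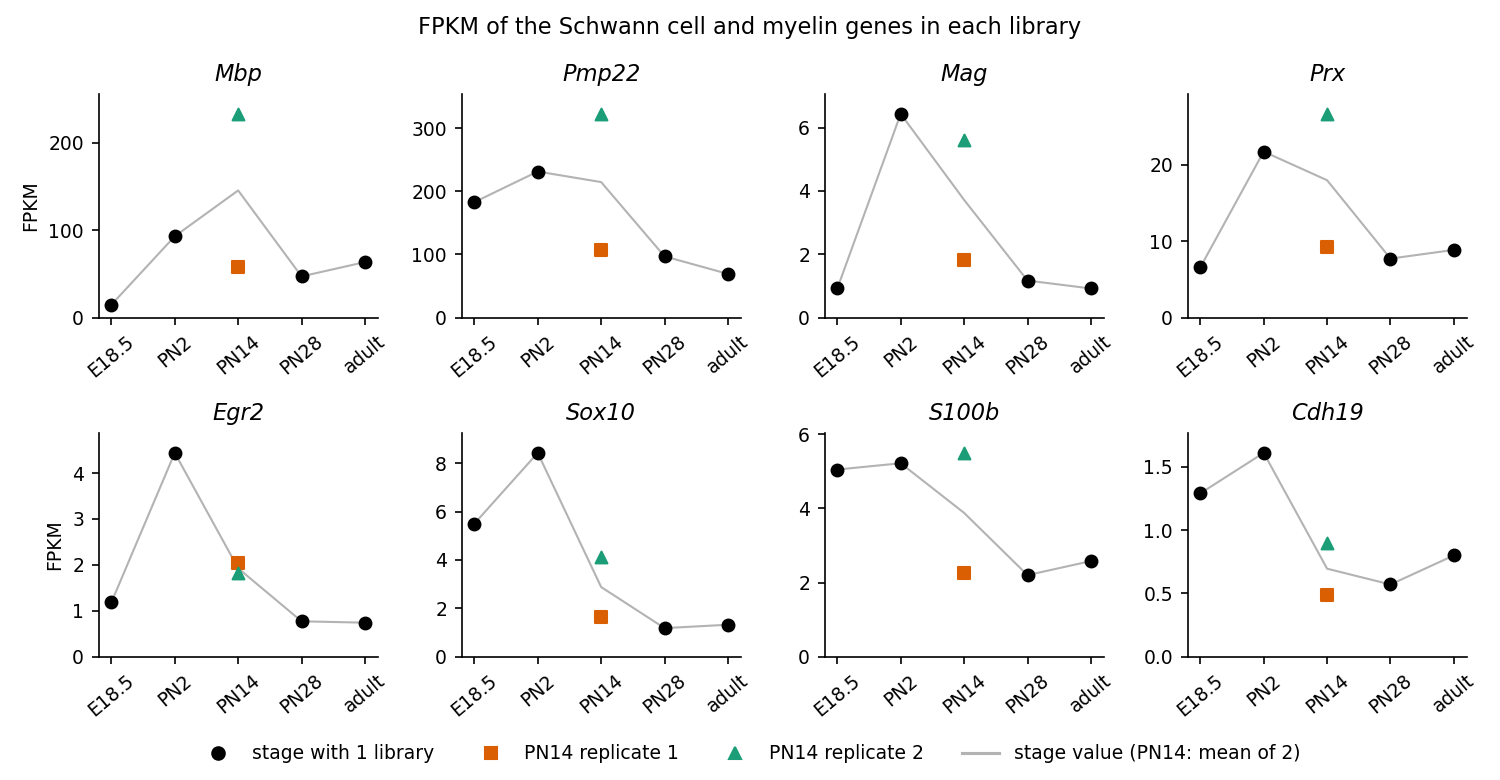
FPKM of each member (linear vertical axis from 0, a separate scale per gene) in each library by stage. Circles are stages with 1 library, the orange square and green triangle are PN14 replicates 1 and 2, and the grey line runs through the PN14 mean. In 7 of the 8 panels the triangle is above the square, and for Mbp it stands at 233 against 57.9 FPKM.

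Sox10 and Egr2 are the transcription factors among the members. Sox10 (mm9, chr15:78985343-78994920, minus strand) read 5.50 FPKM before birth (E18.5), 8.43 on PN2, 1.63 and 4.13 in PN14 mice 1 and 2, 1.18 by PN28 and 1.32 in adult muscle. In FPKM it was thus higher in the perinatal libraries (E18.5 and PN2) than in every later one, but in TMM-normalized CPM the second PN14 library (10.9) stood beside E18.5 (10.1), with PN2 at 15.5 and the other 3 at 5.18 or less. Its PN14 mean was 2.88 ± 1.77 FPKM (SD, n = 2).

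Egr2 (chr10:66998223-67004936, plus strand), also called Krox20, read 1.18 FPKM before birth (E18.5), 4.44 on PN2, 2.03 and 1.82 in PN14 mice 1 and 2, 0.77 by PN28 and 0.74 in adult muscle. PN2 was its highest library. The PN14 pair was close for this gene alone among the 8, at 1.92 ± 0.148 FPKM (SD, n = 2). Egr2 is also an immediate early gene that is switched on briefly in many cell types.

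Mbp and Pmp22 encode structural proteins of compact myelin. Mbp (myelin basic protein), which holds the cytoplasmic faces of the sheath together, read 14.7 FPKM before birth (E18.5), 93.1 on PN2, 57.9 and 233 in PN14 mice 1 and 2, 47.2 by PN28 and 63.6 in adult muscle. Its value at E18.5 lay below all 5 later libraries. In FPKM only the second PN14 library stood above PN2, whereas in TMM-normalized CPM both PN14 libraries (138 and 462) and the adult (178) stood above PN2 (130). The Mbp locus also yields golli transcripts outside myelin, which the gene-level values do not separate.

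Pmp22 (chr11:62942484-62973049, plus strand) encodes peripheral myelin protein 22, whose dosage is altered in inherited neuropathies, and is also made by cells other than Schwann cells. It read 183 FPKM before birth (E18.5), 231 on PN2, 107 and 322 in PN14 mice 1 and 2, 96.9 by PN28 and 69.2 in adult muscle. Unlike Mbp it was already abundant at E18.5.

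Mag and Prx encode proteins of the Schwann cell membrane that are not part of compact myelin. Mag (myelin-associated glycoprotein, chr7:31684202-31699851, minus strand), which faces the axon, read 0.92 FPKM before birth (E18.5), 6.43 on PN2, 1.82 and 5.61 in PN14 mice 1 and 2, 1.17 by PN28 and 0.92 in adult muscle. In FPKM, PN2 and the second PN14 library stood apart from the other 4. In log2 TMM-normalized CPM, E18.5 (0.68) also lay below the adult (1.66) and PN28 (1.87). Prx (periaxin, chr7:28284343-28305233, plus strand), a scaffold that links the outer Schwann cell membrane to the dystroglycan complex, read 6.58 FPKM before birth (E18.5), 21.7 on PN2, 9.30 and 26.7 in PN14 mice 1 and 2, 7.73 by PN28 and 8.87 in adult muscle. In FPKM the same pair of libraries was high for Prx.

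S100b and Cdh19 are general markers of the lineage. S100b (chr10:75716598-75723904, plus strand), a calcium-binding protein, read 5.05 FPKM before birth (E18.5), 5.22 on PN2, 2.26 and 5.50 in PN14 mice 1 and 2, 2.20 by PN28 and 2.58 in adult muscle. Cdh19 (chr1:112785772-112873949, minus strand), a cadherin of Schwann cells and their precursors, read 1.29 FPKM before birth (E18.5), 1.61 on PN2, 0.49 and 0.90 in PN14 mice 1 and 2, 0.57 by PN28 and 0.80 in adult muscle. Neither gene showed the low E18.5 value of Mbp, Mag and Prx.

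Sox10 and Egr2 are known to act on myelin gene promoters, so the promoters of the members were searched for 2 Sox motifs (ACAAAG and ACAATG) and 1 Egr motif (GCGNGGGCG) on both strands. RefSeq windows on GRCm38.p6, from 250 bases before to 50 after a transcript start, were matched by symbol for 5 members (Prx, Mag, Egr2, S100b and Pmp22), in 14 windows, some of which overlap. ACAAAG was found in 2 of the 14, both overlapping windows of Mag and holding the same match, against 18.7% of all 32817 promoters. ACAATG and GCGNGGGCG were found in none of the 14, against 12.6% and 5.56% of all promoters. The 250 bases before the Mag start (GRCm38.p6, chr7:30914923-30915172, minus strand) are shown because Mag is the member with a match, read 67 to 62 bases before the start, with the reverse complement of ACAAAG in capitals.
Mag: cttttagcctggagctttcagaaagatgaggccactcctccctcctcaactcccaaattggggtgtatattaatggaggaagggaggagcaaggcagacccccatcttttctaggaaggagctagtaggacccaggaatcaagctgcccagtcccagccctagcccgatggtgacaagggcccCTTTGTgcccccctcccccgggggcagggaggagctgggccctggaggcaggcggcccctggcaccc
The match describes these letters and does not show a bound site.

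The 2 PN14 libraries differed more in the members than in most genes. After TMM scaling, Mbp differed most, with replicate 2 above replicate 1 by 1.75 on the log2 scale, and Mag by 1.35, Pmp22 by 1.34 and Prx by 1.26. The differences were 1.07 for Sox10, 1.01 for S100b and 0.59 for Cdh19, and -0.41 for Egr2, the member that was lower in replicate 2. In all, 6 of the 8 members were at least 2-fold higher in replicate 2, against 1.64% of the 12933 genes that reached 1 CPM (counts scaled to a fixed library total) in either library. Since both libraries are of 1 stage and from 1 mouse each, no test was made. Each also had its own lane, so mouse and lane cannot be told apart in this pair.

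The wider Schwann cell lists differed in how far they followed the members, whose median was 1.16. Of 12 other myelin protein genes, 12 were higher in replicate 2 and 8 were at least 2-fold higher, including Pmp2, a fatty acid binding protein of myelin, at 5.06 and 19.7 FPKM. The same was true of 3 of 5 myelin lipid enzymes and 5 of 6 genes of nodes and internode adhesion. The Schwann transcription factors (0 of 7 that reached 1 CPM, median 0.20 on the log2 scale) and signalling receptors and ligands (0 of 9, median 0.40) had no gene with a 2-fold difference. Of the immature and non-myelinating list, 3 of 9 were at least 2-fold higher in replicate 2 (median 0.54).

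Markers of other cells differed less between the PN14 mice, or the other way. The median log2 difference was 0.39 for the neuron and axon list (5 of 10 genes at 1 CPM), 0.40 for perineurial cells and nerve fibroblasts, 0.31 for endothelium, 0.11 for macrophages and 0.04 for fibroblasts. It was -0.74 for adipocytes, -0.53 for muscle fibres and -0.13 for cartilage (3 of 6 genes). All 8 immediate early genes were lower in replicate 2, with a median of -0.72 and 2 at least 2-fold lower (against 1.1% of all genes), among them Nr4a1 (-2.12), Fos (-1.07) and Egr1 (-0.66). Egr2 had the sign of that list, and its part in the Egr2 values was not tested.

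**Figure D2:**
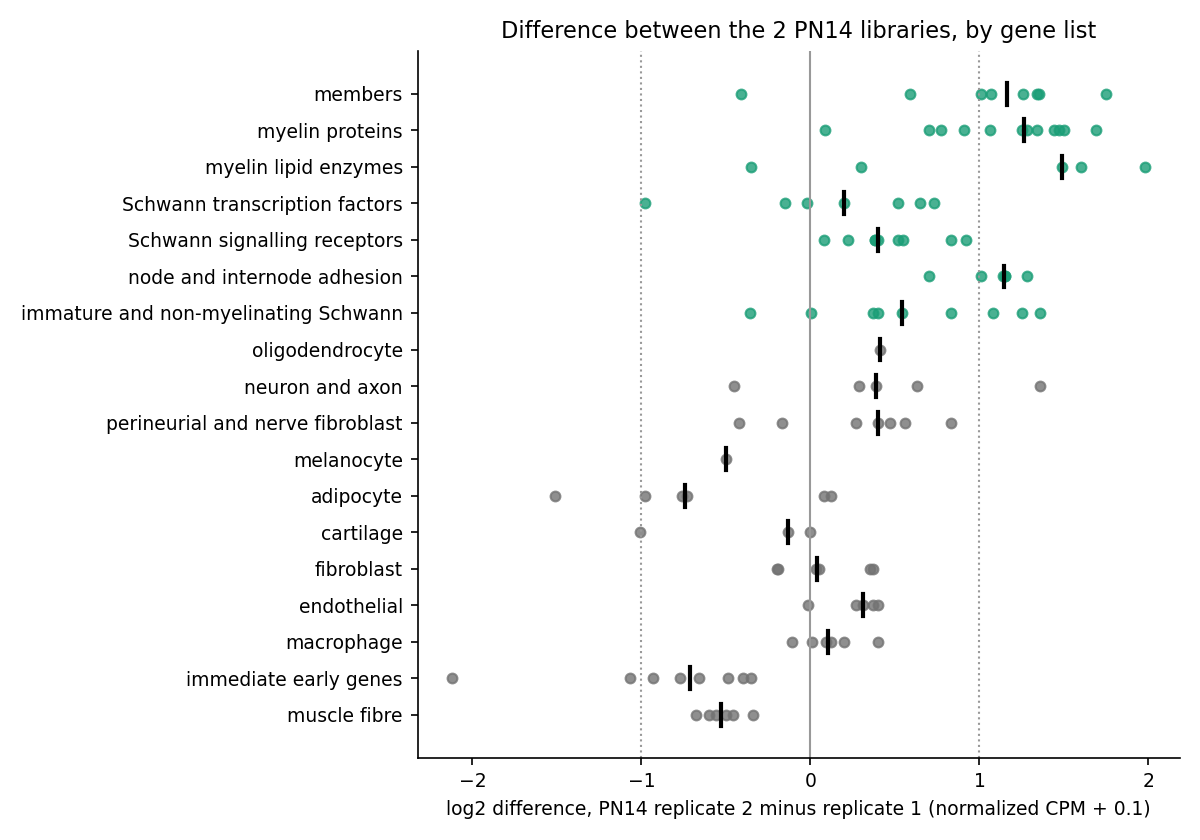
Log2 difference of normalized CPM plus 0.1 between PN14 replicate 2 and replicate 1 (horizontal axis) for genes that reached 1 CPM in either library, 1 row per list. Each point is a gene, the black bar is the list's median, and dotted lines mark a 2-fold difference. Members, myelin proteins, lipid enzymes and node genes have medians of 1.16, 1.26, 1.49 and 1.14, and immediate early genes have one of -0.72.

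The spread of this pair, moderated over all genes, sets what the tests can show. The biological coefficient of variation fitted for the members was 0.357 for Mbp, 0.314 for Mag, 0.301 for Pmp22, 0.278 for Prx, 0.268 for S100b, 0.266 for Sox10, 0.236 for Cdh19 and 0.203 for Egr2, against a common value of 0.188. The quasi-likelihood test does not use these coefficients gene by gene. With the stages ordered by log2 level, Mbp ran E18.5, PN28, PN2, adult, PN14, and only the step from E18.5 to PN28 (2.50) was larger than its PN14 SD (1.24). For Prx too, only the first step, E18.5 to PN28 (1.14, SD 0.89), exceeded the SD.

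Mag passed its SD of 0.95 at 2 steps, from E18.5 to adult (0.98) and from PN28 to PN14 (1.20). Egr2 passed its SD of 0.29 from adult to PN14 (0.99) and from PN14 to PN2 (0.54). None of the 4 steps of Sox10, Pmp22, S100b or Cdh19 was larger than the SD of the gene. Steps between neighbours in this order are only parts of the full range, so they do not show whether a gene changed. Sox10, with an SD of 0.75, ran from 2.04 at PN28 to 3.96 at PN2.

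No member was called from E18.5 to PN2, although the values of Mag, Mbp, Egr2 and Prx were several-fold higher at PN2. The log2 fold change was 2.81 ± 0.659 (SE) for Mag, 2.62 ± 0.795 for Mbp, 1.91 ± 0.341 for Egr2 and 1.73 ± 0.567 for Prx, with edgeR adjusted p of 0.352, 0.546, 0.227 and 0.603. It was 0.62 for Sox10, 0.34 for Pmp22, 0.32 for Cdh19 and 0.05 for S100b. The call rate over all genes was 0.0296%. At an unadjusted p under 0.05 the edgeR fit gave 4 of the 8 members (Mag, Mbp, Egr2 and Prx), against 6.64% of all genes. Other tools called 3: edgeR's exact test Mag, Mbp and Egr2 (2.05% of all genes called), and DESeq2 Mag, Egr2 and Prx (0.977%).

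From PN2 to PN14 no member was called, against 23.0% of all genes, and none had an unadjusted edgeR p under 0.05, against 45.8%. DESeq2 and the exact test also called 0. The log2 fold changes ran from -0.94 for Sox10 to 1.21 for Mbp, and their values turned on which PN14 library was used. With replicate 1 left out, Mbp was 1.83 above PN2, Pmp22 1.01, Prx 0.84, S100b 0.61 and Mag 0.33. With replicate 2 left out, the same genes stood at 0.08, -0.33, -0.42, -0.42 and -1.04, so 4 of these 5 changed direction. Sox10 was below PN2 with either library, at -0.50 and -1.58, as were Egr2 (-0.76 and -0.34) and Cdh19 (-0.31 and -0.93).

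From PN14 to PN28 all 8 members had negative log2 fold changes, from -0.02 for Cdh19 to -1.38 for Mag, and none was called, against 0.0178% of all genes. At an unadjusted edgeR p under 0.05 there was 1 (Egr2, -1.10 ± 0.304 SE), against 8.41% of all genes, and neither DESeq2 nor the exact test called any. For 7 members the value was smaller in size, or of the other sign, without PN14 replicate 2. Without it the value was -0.21 for Mbp, -0.55 for Mag, -0.18 for Prx, -0.06 for Pmp22, -0.39 for Sox10, 0.04 for S100b and 0.31 for Cdh19, whereas Egr2 was at -1.31. Without replicate 1 it was -1.95 for Mbp, -1.90 for Mag and -0.87 for Egr2.

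From PN28 to adult no member was called, against 0.521% of all genes, and none reached an unadjusted edgeR p under 0.05, against 18.3%. By DESeq2 and the exact test the count was 0 as well. The log2 fold changes lay between -0.35 for Pmp22 and 0.62 for Cdh19, and that of Mbp was 0.57 ± 0.751 (SE).

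Across the 2 wider spans some members were called and others were not, and differences between members were not tested. In neither span was the share of members called, in either direction, above that of all genes. From PN2 to PN28, Sox10 fell by 1.95 on the log2 scale (SE 0.521, edgeR adjusted p = 0.036) and Egr2 fell by 1.63 (SE 0.341, edgeR adjusted p = 0.0191), so 2 of 8 members fell, against 12.7% of all genes (27.0% called in either direction). Mag had a value of -1.57 ± 0.631 (SE) that did not pass edgeR's test (adjusted p = 0.104), although DESeq2 and the exact test (24.2% and 31.8% of all genes called) called it. Mbp (-0.11 ± 0.749) and the other 4 members were not called, and all 8 had a negative sign. This comparison rests on 1 library at each stage.

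From E18.5 to adult, Mbp rose by 3.07 on the log2 scale (SE 0.811, an 8.40-fold difference, edgeR adjusted p = 0.0218), the single member called, against 21.4% of all genes that rose and 44.9% called in either direction. DESeq2 gave 3.05 for Mbp with an adjusted p of 0.0971 and so did not call it. Prx was 1.47 ± 0.563 (SE) higher with an edgeR adjusted p of 0.069, and was called by DESeq2 and by the exact test (38.3% and 48.3% of all genes called). Mag was at 1.02 and Sox10 at -1.04, with edgeR adjusted p of 0.217 and 0.132. Pmp22 (-0.38), Egr2 (0.35), Cdh19 (0.34) and S100b (0.06) were closest to 0, and the last 3 turned negative with library size alone, as did Mag.

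**Figure D3:**
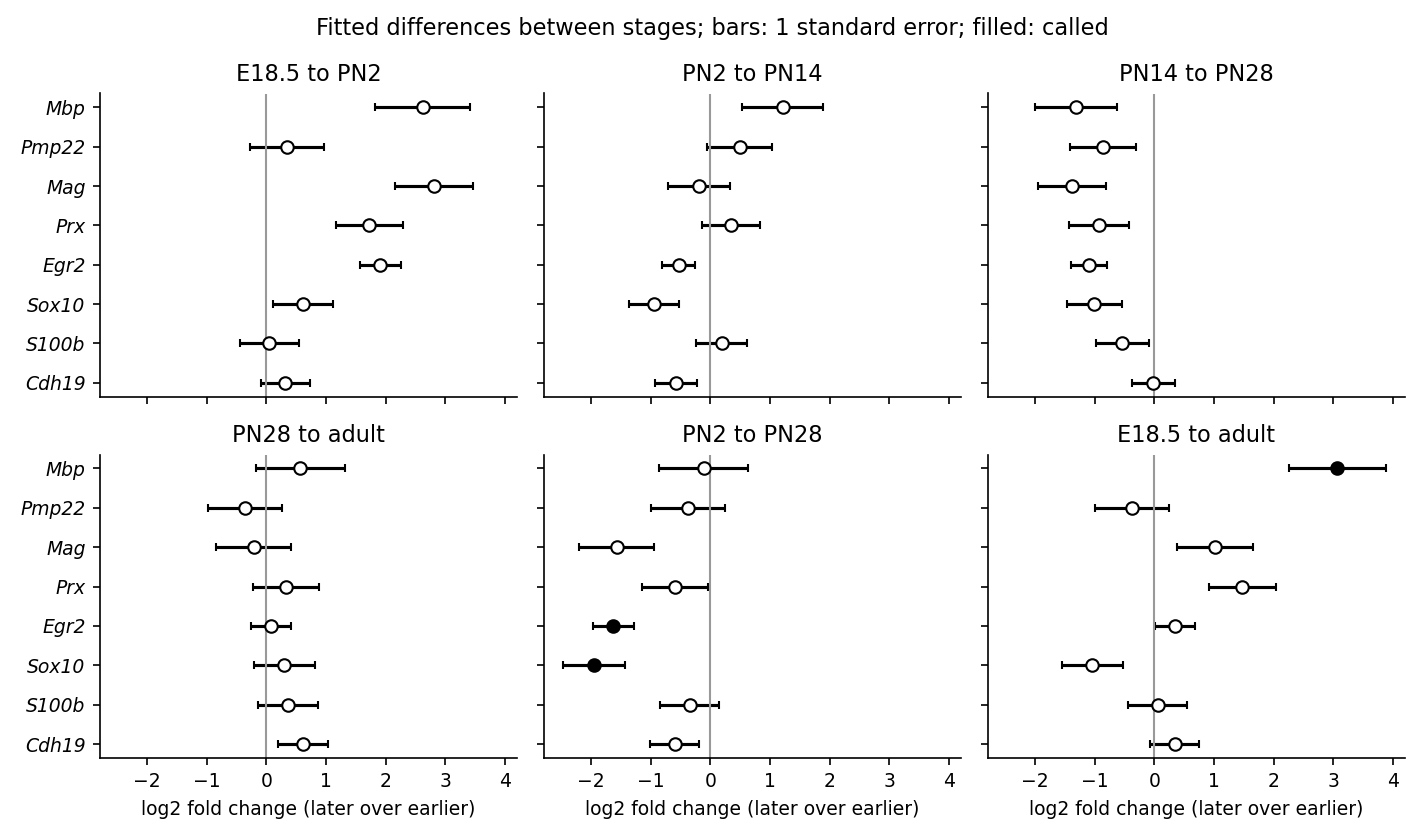
Log2 fold change of the 8 members (later stage over earlier) in the 6 comparisons of the edgeR fit, with bars of 1 standard error derived from the test. Filled points were called, which holds for Sox10 and Egr2 from PN2 to PN28 (-1.95 and -1.63) and for Mbp from E18.5 to adult (3.07), and open points were not.

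Scaling between libraries cancels in a ratio of members within a library, so each member was also set against Sox10. From E18.5 to adult the ratio of Mbp to Sox10 went from 1.06 to 5.15 on the log2 scale, a 17.0-fold difference. In between it stood at 3.06 on PN2, at 4.71 and 5.39 in the PN14 pair and at 4.87 by PN28, so the PN14 mice, at 0.68 apart, both lay above PN2. The ratio of Prx to Sox10 was 1.07 before birth, 2.19 on PN2, 3.33 and 3.52 in the PN14 pair, 3.53 by PN28 and 3.56 in adult muscle. Relative to Sox10, Prx was thus close in all 4 libraries from PN14 on.

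All 7 members other than Sox10 had a higher ratio to it in the adult than at E18.5, by 5.62-fold for Prx, 3.99-fold for Mag, 2.57-fold for Egr2, 2.55-fold for Cdh19, 2.11-fold for S100b and 1.57-fold for Pmp22. The median of the 16882 genes tested was 1.97-fold on this measure, so S100b, Cdh19 and Egr2 lay near it and Pmp22 below it. These folds share the Sox10 value as denominator, and each rests on 1 library per stage, with no test. Between the PN14 mice the ratio differed by 0.28 or less in size for Mag, Pmp22, Prx and S100b, by -0.48 for Cdh19 and by -1.48 for Egr2.

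**Figure D4:**
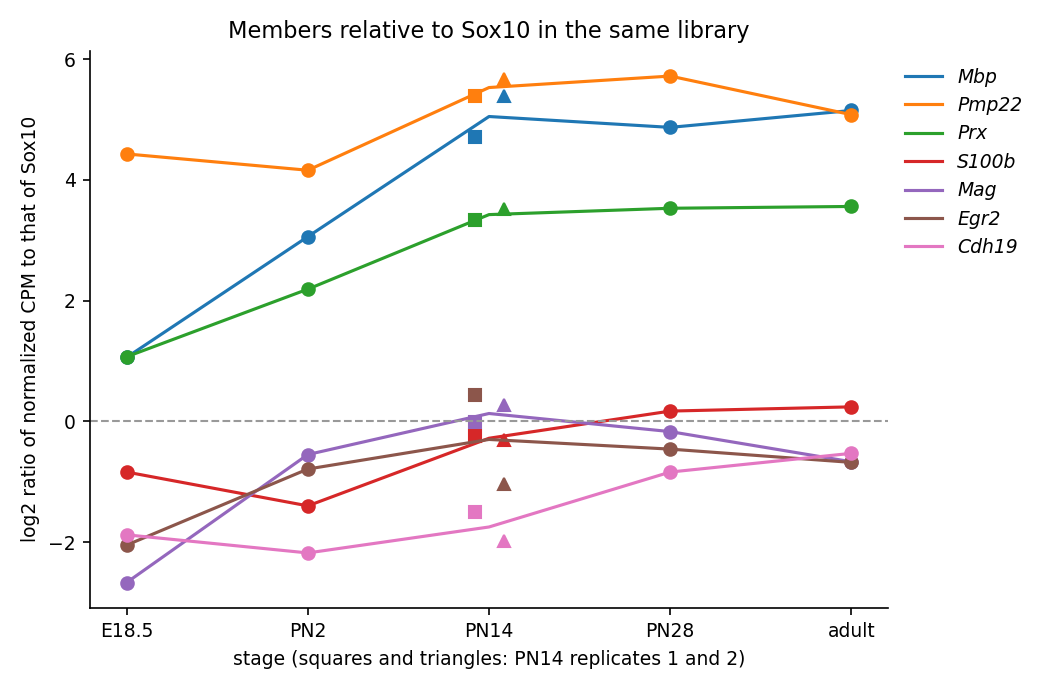
Log2 ratio of the normalized CPM of 7 members to that of Sox10 in the same library (vertical axis), by stage. Circles are single libraries, squares and triangles are PN14 replicates 1 and 2, and lines pass through their mean. Mbp goes from 1.06 at E18.5 to 5.15 in the adult, and the Egr2 replicates at PN14 lie at 0.44 and -1.04.

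The other genes of the myelin sheath gave more calls than the members. From E18.5 to adult, 7 of 12 myelin protein genes rose and none fell (against 21.4% and 23.6% of all genes), with a median log2 fold change of 1.71 over the list against -0.054 over all genes tested. With library size alone 6 rose and 2 fell. The gap junction gene Gjb1 rose from 2 to 136 counts, a 153-fold difference in normalized CPM (exact 95% interval for counting error alone 41.6 to 1280). Ncmap rose by 3.95 on the log2 scale, from 0.30 to 2.28 FPKM. Pmp2 rose by 3.16 (0.08 to 0.34 FPKM), although its adult value lay far below PN2 (8.11), PN14 (5.06 and 19.7) and PN28 (5.32). The membrane protein Pllp rose by 3.14, while Cd9 and Cnp were not called.

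Smaller rises were found for the tight junction gene Cldn19 (2.34), for Cd59a (2.23) and for Drp2, a partner of periaxin (1.19), the last not called with library size alone. Among the lipid enzymes, Fa2h, which hydroxylates the fatty acids of myelin lipids, rose by 3.68 and Aspa by 2.34, and 0 of 5 fell, whereas with library size alone 3 rose and 2 fell. Ugt8a and Cers2 were not called. From PN2 to PN28 the calls with TMM were few: Cd59a (1.78) and Aspa (1.30) rose (as did 14.3% of all genes), which was lost with library size alone, and Gjc3 (-1.95) and Gal3st1 (-2.47) fell. With library size alone, 5 of 12 myelin proteins and 3 of 5 lipid enzymes fell in this span and 0 rose. Cd59a and Aspa did not follow their lists between the PN14 mice. Their log2 differences, replicate 2 minus replicate 1, were 0.088 and -0.35, against list medians of 1.26 and 1.49. Which cells gave their rises was not tested.

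The list of receptors and ligands of Schwann cell signalling had 7 of 10 genes that fell from E18.5 to adult and 1 that rose, against 23.6% and 21.4% of all genes. Erbb3 read 16.8 FPKM before birth (E18.5), 15.6 on PN2, 2.61 and 3.64 in PN14 mice 1 and 2, 1.63 by PN28 and 1.19 in adult muscle, so that the perinatal libraries were separated from all others. It fell by 2.80 on the log2 scale from E18.5 to adult, and by 1.67 from PN2 to PN14 (SE 0.176, edgeR adjusted p = 0.00496). Erbb2, its partner, fell by 3.11 from E18.5 to adult, and Ngfr, the p75 neurotrophin receptor of immature Schwann cells, had a fitted fall of -5.45. The ligand gene Nrg1 fell from 200 to 2 counts, a 44.4-fold difference in normalized CPM (exact 95% counting interval 12.1 to 369). The others that fell were Gpr126 (-1.83), Adam22 (-1.43) and Itga6 (-1.29).

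Itgb4 rose by 1.58, a call lost with library size alone. In the intervals PN2 to PN14 and PN2 to PN28 the same 6 genes of this list fell, against 11.2% and 12.7% of all genes, Erbb2, Erbb3, Nrg1, Gpr126, Adam22 and Ngfr. Most of these genes are also made by other cells of muscle. All 9 genes of this list that reached 1 CPM were higher in PN14 replicate 2, none by 2-fold.

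Of the 10 other transcription factors, 5 fell from E18.5 to adult (23.6% of all genes) and none rose: Foxd3 (-2.18), Id2 (-2.01), Nab2, an Egr corepressor (-1.44), Pou3f1, the promyelinating factor Oct6 (-1.38), and Zeb2 (-1.11). From PN2 to PN28, 6 fell (12.7% of all genes), with Pou3f1 at -2.63 ± 0.461 (SE), Foxd3 at -2.86, Zeb2 at -1.36, Id2 at -1.16 and the low genes Pou3f2 and Sox2 (at most 0.24 and 0.58 FPKM). From PN2 to PN14 the 4 that fell (11.2% of all genes) were Foxd3, Id2, Zeb2 and Sox2. Jun and Nab1 were called in none of these.

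Node and adhesion genes had 3 of 6 that rose and 2 that fell, again beside 21.4% and 23.6% of all genes. From E18.5 to adult Gldn (gliomedin, which gathers sodium channels at nodes) rose by 5.75, from 0.02 to 0.52 FPKM, Nfasc by 3.54 and the axonal adhesion gene Cadm3 by 1.06, while Nrcam fell by 3.35 and Cntn1 by 2.13. The Cadm3 call was lost with library size alone. Nfasc rose by 2.15 from PN2 to PN14 (as did 11.8% of all genes), and Nrcam fell by 2.20 from PN2 to PN28. Cadm4, the Schwann cell partner of Cadm3, was called in no comparison.

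Genes of immature and non-myelinating Schwann cells were called in both directions, as were all genes (23.6% fell and 21.4% rose). From E18.5 to adult 4 of 11 fell, Gap43 (-6.02), Ngfr (-5.45), Ncam1 (-3.14) and Fabp7 (405 to 3 counts, 60.0-fold in normalized CPM, exact 95% counting interval 20.4 to 292), and 3 rose, Fxyd3 (2.98), Scn7a (2.38) and Art3 (2.38). From PN2 to PN28 these 7 were called in the same directions, but the 3 rises were not called with library size alone. Gap43, Ncam1 and Art3 are also expressed by axons or muscle fibres.

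**Figure D5:**
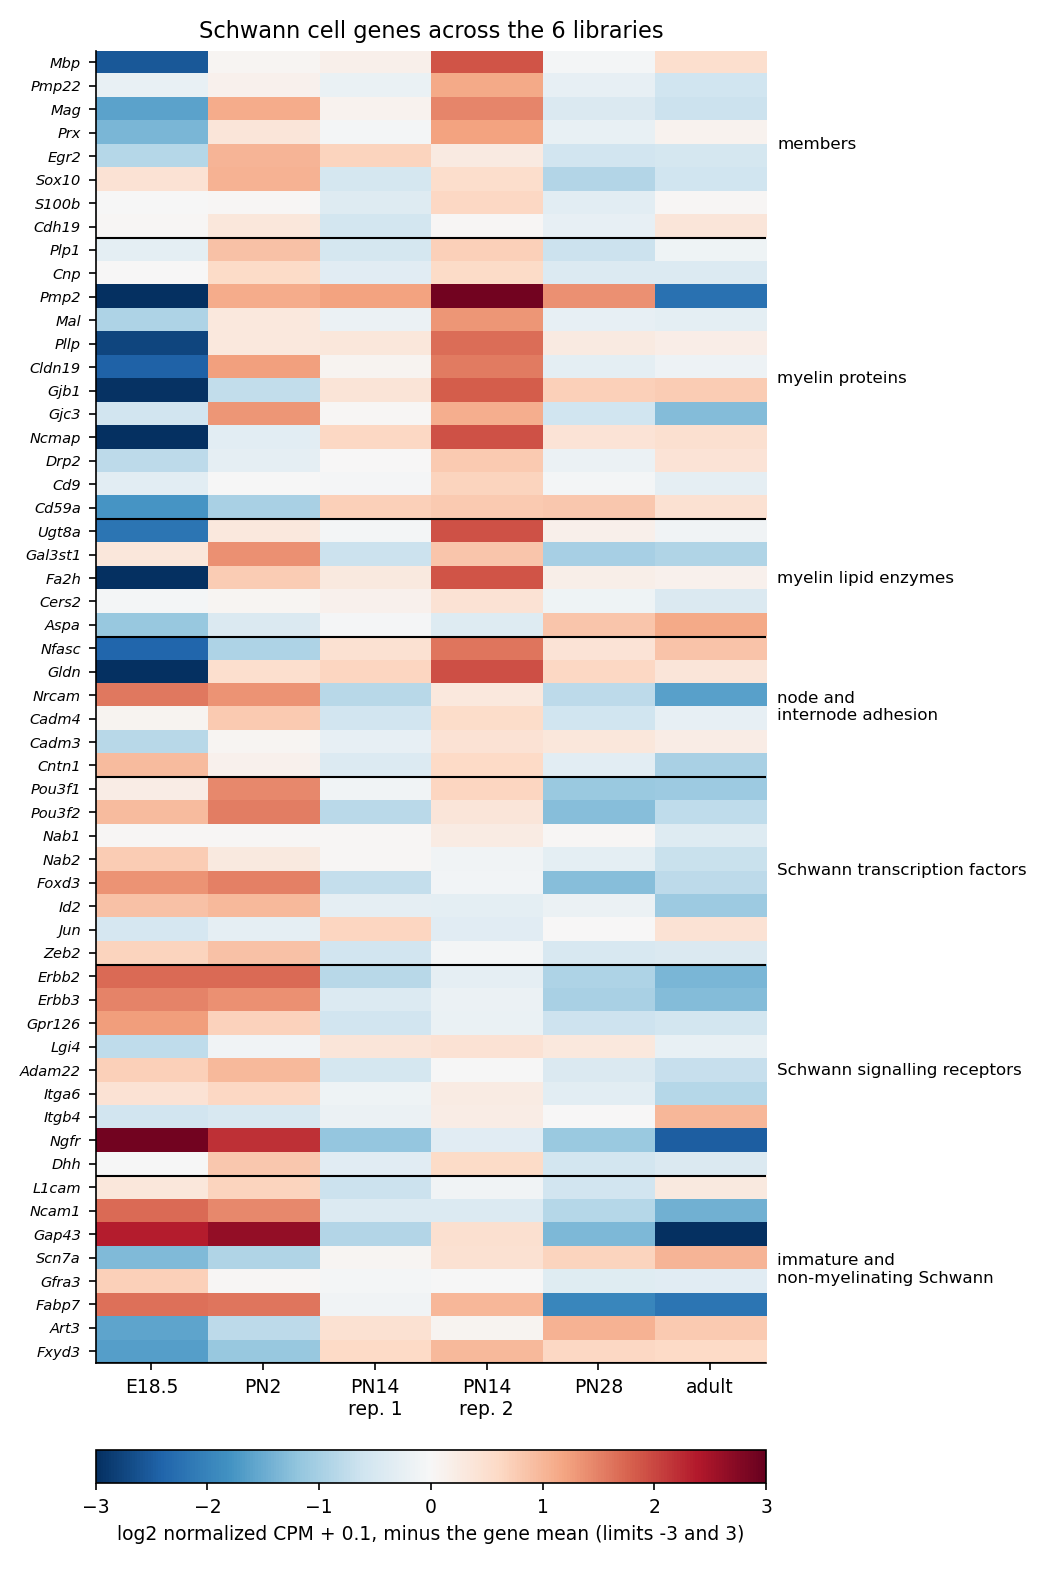
Level of the members and of the Schwann cell list genes that reached 1 CPM in any library, as log2 normalized CPM plus 0.1 minus the gene's mean over the 6 libraries (red higher, blue lower, colours limited at -3 and 3). Columns are libraries and black lines separate lists. Myelin genes such as Mbp and Pmp2 are darkest red in PN14 replicate 2, where Mbp reached 233 FPKM, and Erbb3 and Ngfr are red at E18.5 and PN2.

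Markers of other cells stood beside these values as follows, and their part in the members' values was not tested. Central myelin is made by oligodendrocytes, and their 6 markers summed to 0.08 to 1.44 FPKM per library, with Opalin at 0 throughout and only Cldn11 reaching 1 FPKM. The neuron and axon list (led by Uchl1, Gap43 and Sncg) summed to 59.9 FPKM at E18.5 and 65.4 at PN2, and to 19.0 to 34.9 later, with 4 of 10 genes falling and 1 rising from PN2 to PN28 (12.7% and 14.3% of all genes). The perineurial and nerve fibroblast list (Ngfr, Slc2a1 and Osr2 highest) summed to 83.4 and 53.9 FPKM in the perinatal libraries and 13.0 to 17.8 later.

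The fibroblast list (Col1a1, Col3a1, Col1a2) summed to 6090 FPKM at E18.5 and 516 in the adult. Cartilage genes (Col2a1, Comp, Col9a1) summed to 86.5 at E18.5 and 12.2 to 28.1 after it. From E18.5 to adult 4 of these 6 genes fell and 1 rose (23.6% and 21.4% of all genes). Col2a1 went from 60.2 to 0.17 FPKM. Comp rose, a call lost with library size alone, and gave 14.6 of the adult sum of 15.6. Melanocytes, which like Schwann cells come from the neural crest and express Sox10, gave 1.92 to 5.38 FPKM over 6 genes (Mitf, Dct and Pmel highest). In the adult Mitf alone gave 2.39 of 2.53 FPKM. Endothelial genes (Cdh5, Pecam1, Tie1) summed to 63.6 to 248 FPKM and macrophage genes (C1qb, C1qa, Mrc1) to 29.3 to 95.2. Adipocyte genes (Fabp4, Cfd, Adipoq) summed to 372 to 639 FPKM, and 5 of 6 rose from E18.5 to adult (21.4% of all genes). Most of that sum was Fabp4, at 302.61 to 625 FPKM, so it does not show the course of the other genes. Cfd ran from 0.09 FPKM at E18.5 to 74.3 at PN28, and Adipoq from 1.06 at E18.5 to 22.0 at PN2. Immediate early genes summed to 118 FPKM in PN14 replicate 1 and 57.3 in replicate 2, and from PN2 to PN28, the span in which Egr2 fell, 3 of 8 of them fell (12.7% of all genes).

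The profiles most like those of the members over the 6 libraries were found by the root mean square difference of centred log2 levels. Among 13353 genes, the 10 nearest to the mean profile of Mbp, Mag and Prx were Kcna1 (0.22), Ugt8a (0.29), Elovl7 (0.34), Cdh1 (0.37), Kif19a (0.37), Cldn19 (0.39), Plin5 (0.41), Mal (0.42), Hoxa4 (0.42) and Gpr37l1 (0.44). Of these, Ugt8a, Cldn19 and Mal were on the myelin lists. Kcna1, a potassium channel gene, read 0.44 FPKM before birth (E18.5), 2.27 on PN2, 0.94 and 2.20 in PN14 mice 1 and 2, 0.55 by PN28 and 0.59 in adult muscle, and so was high in the same pair of libraries as Mag. Cdh1 encodes E-cadherin, an adhesion protein also found in non-compact myelin, and stayed between 0.13 and 0.99 FPKM.

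The 5 genes nearest to Sox10, among 13355, were Gas2l3 (0.10), Kank4 (0.11), Prss12 (0.18), Kcnmb4 (0.19) and Uchl1 (0.19). Gas2l3 read 4.15 FPKM before birth (E18.5), 5.69 on PN2, 1.08 and 3.15 in PN14 mice 1 and 2, 0.89 by PN28 and 0.84 in adult muscle. Both rankings describe 6 libraries and carry no test.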

How the data were processed

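The authors aligned paired-end reads to mm9 with TopHat 2.0.5, used RSEM (version not given in the sources used here) to count fragments over RefSeq genes and deposited, for 6 libraries, an expected count and an FPKM value per gene. The deposited expected counts are not normalized, and the deposited FPKM values, made by the authors, are relative to gene length and library total and have 2 decimals. Expected counts, rounded to whole numbers, were analysed in R 4.3.3 with edgeR 4.0.16: TMM scaling, filterByExpr by stage, and the quasi-likelihood test with 5 stages in 1 fit, Benjamini-Hochberg adjusted over 16882 genes. The PN14 pair left 1 residual degree of freedom, with a prior of 4.86. Each SE of a log2 fold change was derived from the test. It is the size of the unshrunken log2 fold change over the square root of the test's F statistic. In simulated data (16882 genes, 200 changed 4-fold) the test recovered 199 from PN2 to PN14, with 31 false among 230 calls (13.5%). For E18.5 against PN2 it recovered 190, and 37 of 227 calls were false (16.3%). Both false shares exceed the threshold of 0.05 on the adjusted p. Recovery in simulated data does not show how many real changes the test can find in these libraries. From E18.5 to PN2 the fit called 5 of 16882 genes, and Mag, 6.99-fold higher at PN2, was not among them. The p-values rest on the spread between the 2 PN14 mice, moderated over all genes through the prior, and on no spread within the other stages. A count of 3 equals 0.019 to 0.0239 CPM. Log2 levels used a pseudocount of 0.1 CPM. Alternatives were library size alone, DESeq2's size factors, DESeq2 1.42.0, edgeR's exact test, no filter, a mean of 1 CPM, a pseudocount of 1, and leaving out a PN14 library. All 8 members, the 3 highest genes of each of 17 other lists, called genes of the Schwann lists and the nearest genes are named. Gene coordinates came from GENCODE M1 (mm9). The members and lists were chosen with earlier results of these data known. A gene of the lists, Mbp coordinates and sequences, and the authors' splicing data, are not reported here. Python 3.11.15, numpy 2.4.6, pandas 2.3.3 and matplotlib 3.10.9 were used.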

Additional observations from a re-analysis of the deposited data

How the results depend on the processing

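Each stage other than PN14 had 1 library, so the tests assume that all stages vary as the PN14 mice do. The E18.5 and PN2 libraries were pools and the others single mice, so this need not hold for them. Pooling, and the mixed sexes at E18.5, cannot be told apart from stage. No paired analysis was possible because only PN14 has a second replicate. With library size alone, the members called numbered 3 in each of the first 3 intervals, 7 for PN2 against PN28 and 3 for E18.5 against adult, where TMM gave 0, 0, 0, 2 and 1. The calls with library size alone were 3 rises from E18.5 to PN2, and only falls from PN2 to PN14, PN14 to PN28 and PN2 to PN28. From E18.5 to adult they were 1 rise and 2 falls. That setting called 1.43%, 34.5%, 1.55%, 42.4% and 53.6% of all genes. Thus 3 of 8 was near the share of all genes for PN2 to PN14 and below it for E18.5 against adult. The setting called 7 of 8 from PN2 to PN28, where its all-gene median was -0.92. It also reversed Pmp22 (-0.11), Prx (-0.26) and S100b (-0.42) from PN2 to PN14, Egr2 from PN28 to adult (-0.064), and Mag (-0.0038), Egr2 (-0.67), S100b (-0.97) and Cdh19 (-0.69) from E18.5 to adult. From E18.5 to PN2 DESeq2 and the exact test each called 3 members, against 0.977% and 2.05% of all genes. From E18.5 to adult the exact test and the fit with no filter each called 2 of 8, against 48.3% and 39.1% of all genes. With genes of a mean of at least 1 CPM, S100b from E18.5 to adult reversed to -0.025. With DESeq2's size factors all 48 differences kept their direction and their side of the threshold. With a pseudocount of 1 CPM, 6 of the 10 genes nearest to Mbp, Mag and Prx and 3 of the 5 nearest to Sox10 remained. The causes were not tested.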
